A study of Ovis aries with 115 samples.

Results

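The cervix of Suffolk ewes was compared between the follicular and the luteal phase of a synchronised oestrous cycle. The libraries were chosen by their labels as breed Suffolk and cycle Induced, with 11 follicular and 10 luteal libraries, so 21 of the 115 in the series. One further Suffolk library was left out because its title disagreed with its labels on both cycle and phase. Each library was poly(A) RNA from cervical tissue taken post mortem, 1 library per sample, and the ewes of both phases were of the same breed and had the same kind of cycle. In the study, multiparous ewes were synchronised with an intravaginal progestagen sponge followed by equine chorionic gonadotropin, and follicular tissue was taken after sponge withdrawal with the ovaries inspected at slaughter. How the day of luteal collection was set is not given in the sources used here. Suffolk was compared with the synchronised phases of Belclare (20 libraries), Fur (17) and Norwegian White Sheep (NWS, 18), and with 8 Suffolk libraries from the follicular phase of a natural cycle. By the study's account Belclare shares its country, Ireland, with Suffolk, while the other breeds were Norwegian. Breed therefore cannot be told apart from country in any comparison of Suffolk with Fur or NWS. The question addressed was how the cervix of Suffolk, a breed of low fertility after cervical insemination with frozen-thawed semen, changes its gene expression over the cycle.

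During the follicular phase of the ewe, oestradiol from the growing follicle acts on the cervix, which then secretes abundant hydrated mucus. After ovulation the corpus luteum secretes progesterone and the mucus becomes scant and viscous. The tissue holds a mucus-secreting epithelium over a collagen-rich stroma with smooth muscle, vessels and resident leukocytes. RNA was extracted from the whole tissue, so fewer cells of a type and less RNA per cell cannot be told apart in any of the values below.

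Levels are given as CPM, counts scaled to a common library total after normalisation by the trimmed mean of M-values (TMM), and are compared only between libraries, never between genes. Fold changes are log2 values of follicular minus luteal with their standard error (SE). A gene was called a DEG at a Benjamini-Hochberg adjusted p under 0.05 and a fold change above 1.5 by edgeR's quasi-likelihood test. Total counts ran from 15177320 to 31261671 in the follicular and from 12238996 to 21071028 in the luteal libraries, and the difference of their means gave p = 0.442 in an exact two-sided permutation test. The follicular libraries came from separate ewes by the study's methods. For the luteal libraries the sources used here name only separate samples, so p-values measure the spread between these samples. Of 14628 genes tested, 1239 were higher (8.47%) and 1273 lower (8.70%) in the follicular phase, with a median log2 fold change of -0.02 over all genes. Without the fold threshold 5238 genes passed (35.8%), and with it 2512 (17.2%). Of the higher genes 547 and of the lower genes 498 changed by more than 2-fold. Of all genes, 180 had every follicular library above every luteal library (1.23%) and 138 had the reverse (0.943%), and without luteal replicate 7 these counts were 304 and 232.

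Symbols could be given to 1326 of the genes tested, and they came from the supplementary tables of the study, which list genes that differed between breeds at the follicular phase and so were chosen in part on the same Suffolk follicular libraries. Among these genes 279 were higher (21.04%) and 34 lower (2.56%), against 8.47% and 8.70% of all genes, with a median log2 fold change of 0.24. The gene lists below hold genes with a symbol and were chosen with earlier results of these data known. Their counts of higher genes are therefore not independent evidence of direction and are read against 21.04% and 2.56%.

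The first principal component of log2 CPM held 30.9% of the variance and the second 15.8%. Follicular libraries scored from -2.35 to 61.5 on the first component and 9 of 10 luteal libraries from -49.99 to -33.9. Luteal replicate 7 stood apart from the other luteal libraries at 14.2, inside the follicular range. Over the 1273 genes lower in the follicular phase, its level lay nearer the follicular than the luteal mean in 62.8%, against 11.7% to 29.3% for the other 9 luteal libraries. Over the 1239 higher genes it was nearer the follicular mean in 43.3%, against 5.57% to 20.6%. Without this library 1467 genes were higher and 1460 lower. The library was kept. Without it the counts of higher and lower members were 5 and 0 in the oestrogen list (median 1.54), 7 and 0 in the progesterone and glucocorticoid list, 3 and 0 in the receptor list, 19 and 2 in the matrix list, 8 and 1 in the acute phase list, 4 and 1 in the lipid mediator list, 9 and 1 in the developmental list and 16 and 2 in the lysosomal list. Among markers they were 4 and 1 for epithelium, 6 and 1 for fibroblasts and 0 and 1 for endothelium, and the counts of the other lists did not change. Follicular replicate 2 also stood apart, with the highest immunoglobulin and MUC5AC levels of its group, and without it 1190 genes were higher and 1221 lower. The interferon list then had 0 higher and 2 lower members, the acute phase list 5 and 1, the progesterone and glucocorticoid list 6 and 1, and the B and plasma cell list 2 and 1.

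**Figure D1:**
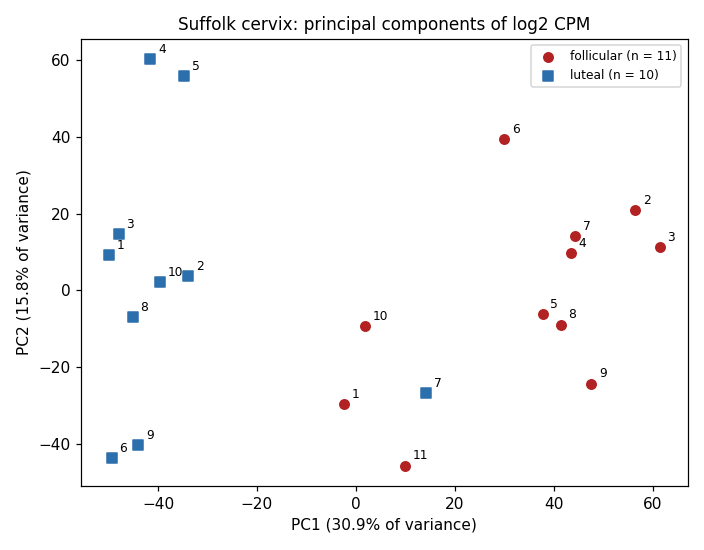
Scores of the 21 Suffolk libraries on the first and second principal components of log2 CPM. Each point is 1 library with its replicate number, circles are follicular and squares luteal. Luteal replicate 7 sits at 14.2 on the first component, next to follicular replicates 1, 10 and 11, and the other 9 luteal libraries sit at or below -33.9.

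Several genes known to respond to oestrogen were higher in the follicular phase. Of the 7 members of the oestrogen response list with a symbol, 4 were higher and none was lower (21.04% and 2.56% of genes with a symbol), with a list median of 1.10. GREB1, an oestrogen receptor cofactor and target, had 366, 797 and 1088 CPM as the lowest, median and highest follicular value and 26.2, 55.1 and 259 CPM in the luteal libraries. Every follicular library was above every luteal one, and the highest luteal value was that of replicate 7. The difference was 3.20 ± 0.41 (SE, adjusted p = 1.07e-05). PADI2, which converts arginine to citrulline in histones, ran from 7.95 to 25.4 CPM (median 15.9) in follicular and from 2.48 to 10.7 CPM (median 4.34) in luteal tissue, a difference of 1.59 ± 0.28 (adjusted p = 0.000214) with overlapping groups. RET, a receptor tyrosine kinase, rose by 1.69 ± 0.41, and S100G, a calcium-binding protein of epithelia, by 1.10 ± 0.30 (adjusted p = 0.00344 and 0.00691). NRIP1 (0.32 ± 0.18) and BMF (0.42 ± 0.27) did not pass the test.

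OXTR, the oxytocin receptor, rested on 1 luteal library. It had 2.69, 20.3 and 136 CPM as the lowest, median and highest follicular value, while 9 luteal libraries ran from 0.115 to 8.23 CPM and luteal replicate 7 was at 229 CPM, above all follicular libraries. With all libraries the difference was 0.34 ± 1.04 (adjusted p = 0.823). Without luteal replicate 7 it was 4.03 (adjusted p = 0.000287), and without follicular replicate 3, the highest of its group, it was -0.25 (adjusted p = 0.875). With the likelihood ratio test of DESeq2 the difference was 3.56 (adjusted p = 3.31e-05), and why it differed was not tested.

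In the progesterone and glucocorticoid response list 6 of 15 members were higher and none lower (21.04% and 2.56% of genes with a symbol). The list median was 0.77. HSD11B1, which turns inactive glucocorticoid into its active form, had 12.3, 25.1 and 119 CPM in follicular libraries and 1.12, 2.94 and 5.94 CPM in luteal libraries. The groups did not overlap and the difference was 3.48 ± 0.38 (adjusted p = 1.86e-06). RBP4, the plasma carrier of retinol, rose by 1.87 ± 0.32, from a luteal median of 65.6 CPM to a follicular median of 238 CPM. STRA6, the membrane receptor for that carrier, rose by 2.40 ± 0.58, and its highest luteal value of 185 CPM was again that of replicate 7, without which it rose by 3.21. BMP2, a bone morphogenetic protein, rose by 1.65 ± 0.29, the protease inhibitor CST6 by 1.64 ± 0.48 and the transcription factor KLF9 by 0.77 ± 0.14. FKBP5 (0.49 ± 0.36), IHH (1.12 ± 0.46) and WNT4 (1.28 ± 0.52) did not pass.

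RBP2, a cellular retinol-binding protein, had the largest increase of all called genes with a symbol. Its follicular libraries had 1.28, 16.8 and 51.6 CPM and its luteal libraries 0.0436, 0.158 and 1.27 CPM as the lowest, median and highest value, so the groups came close without overlapping. The difference was 5.94 ± 0.70 (adjusted p = 4.32e-06), and the luteal values were close to the 0.131 to 0.225 CPM that 3 counts represented in those libraries.

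Of 13 steroid receptors, cofactors and steroid enzymes tested, HSD11B1 and HSD17B3 were higher and none was lower (21.04% and 2.56% of genes with a symbol). The list median was 0.32. HSD17B3, an androgen-forming 17-beta-hydroxysteroid dehydrogenase, ran from 0.950 to 3.92 CPM against 0.231 to 2.19 CPM, a difference of 0.96 ± 0.33 (adjusted p = 0.0281), which lost its call without follicular replicate 11 (adjusted p = 0.0503), in the fit of all breeds and states together (adjusted p = 0.0718) and with the replicate number as a block (adjusted p = 0.101). PGRMC1, a membrane-associated progesterone-binding protein, had medians of 64.5 and 49.3 CPM, and its difference of 0.40 ± 0.09 (adjusted p = 0.00128) stayed below the fold threshold. ESR2, oestrogen receptor beta, ran from 1.32 to 17.4 CPM in follicular and from 0.288 to 26.3 CPM in luteal libraries, with a difference of -0.07 ± 0.63 (adjusted p = 0.944). Genes for the other main sex steroid receptors had no symbol in the sources used here and were not analysed.

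**Figure D2:**
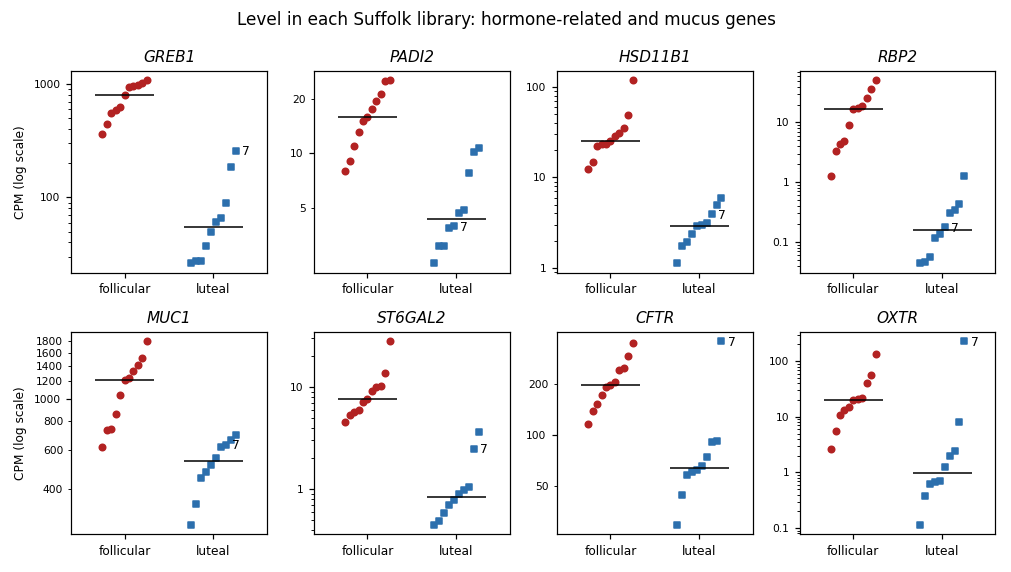
CPM on a log axis in each of 11 follicular (circles) and 10 luteal (squares) Suffolk libraries for 8 genes, with horizontal lines at the group medians and luteal replicate 7 marked. GREB1, HSD11B1, RBP2 and ST6GAL2 did not overlap between phases, while replicate 7 exceeded all follicular libraries for OXTR (229 CPM) and CFTR (361 CPM).

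The membrane mucins MUC1 and MUC16 were higher in the follicular phase, while the gel-forming mucins varied more between libraries. In the mucin and glycosylation list 7 of 15 members were higher and none lower (21.04% and 2.56% of genes with a symbol). The list median was 0.63. MUC1, a membrane mucin, had 618, 1214 and 1799.7 CPM in follicular and 280.1, 532 and 694 CPM in luteal libraries, and follicular replicate 1 was the one follicular library below the highest luteal value. Its difference was 1.13 ± 0.19 (adjusted p = 0.000159). MUC16, another membrane mucin, rose by 1.22 ± 0.23 (adjusted p = 0.000432), and its luteal maximum of 1756 CPM was that of replicate 7. MUC5B, the main gel-forming mucin of cervical mucus, had 29.4, 112 and 443 CPM against 20.04, 53.3 and 116 CPM, a difference of 1.27 ± 0.38 (adjusted p = 0.0127). The highest value was that of follicular replicate 2, without which the difference was 0.905 (adjusted p = 0.0284). MUC5AC, the other secreted gel-forming mucin, had medians of 13.4 and 12.6 CPM. Follicular replicate 2 held 731 CPM, with no other follicular library above 61.7 CPM, and luteal replicate 5 held 122 CPM. The difference of MUC5AC was 1.87 ± 0.95 (adjusted p = 0.129), -0.21 without follicular replicate 2 (adjusted p = 0.827) and 2.81 without luteal replicate 5 (adjusted p = 0.0276).

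Of the enzymes that build mucin glycans, ST6GAL2, a sialyltransferase, showed the largest change. It had 4.48, 7.55 and 28.0 CPM in follicular libraries and 0.449, 0.838 and 3.65 CPM in luteal libraries, without overlap, and rose by 2.98 ± 0.41 (adjusted p = 2.04e-05). CHST7, a sulfotransferase, rose by 1.02 ± 0.25, FUT4, a fucosyltransferase, by 0.67 ± 0.17, and the galactosyltransferase B4GALT1 by 0.63 ± 0.15. B4GALT1 fell below the fold threshold without follicular replicate 3 (0.50, adjusted p = 0.00213) and with the replicate number as a block (0.566, adjusted p = 0.00913). ST6GAL1 (-0.06 ± 0.28) and GALNT15 (-0.04 ± 0.27) did not pass.

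Of 21 members of the ion, water and acid transport list 8 were higher and 1 lower (21.04% and 2.56% of genes with a symbol). The list median was 0.52. CFTR, the apical chloride and bicarbonate channel that hydrates mucus, had 116, 198 and 354 CPM in follicular libraries, while 9 luteal libraries lay at or below 91.5 CPM and replicate 7 at 361 CPM. Its difference was 1.18 ± 0.34 (adjusted p = 0.0102) and 1.72 without luteal replicate 7. ATP6V0A4, a subunit of the vacuolar proton pump, had 150.0, 344 and 730.2 CPM against 101, 154 and 199 CPM and rose by 1.54 ± 0.23 (adjusted p = 4.06e-05), and ATP6V1B1, another subunit, rose by 0.92 ± 0.22. ATP12A, a proton-potassium pump, rose by 2.97 ± 0.41, and SCNN1D, an epithelial sodium channel subunit, by 2.80 ± 0.38, both without overlap and both at or below 1.05 CPM in luteal libraries. FXYD4, a regulator of the sodium pump, rose by 3.48 ± 0.75 (4.60 without luteal replicate 7), the potassium channel KCNK6 by 0.84 ± 0.16 and the water channel AQP5 by 0.81 ± 0.30. The sodium channel subunits SCNN1A (-0.41 ± 0.23) and SCNN1B (0.06 ± 0.34) did not pass. The member that fell was AQP9, a water and glycerol channel, described with the luteal genes.

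Of 28 junction and differentiation genes of the epithelium tested, 5 were higher and 1 lower (21.04% and 2.56% of genes with a symbol). Their median was 0.24. CLDN10, a tight-junction claudin that forms ion pores, had 29.5, 132 and 227 CPM against 1.64, 17.1 and 75.2 CPM and rose by 2.38 ± 0.51 (adjusted p = 0.00127). GJB2, a gap-junction connexin, rose by 2.06 ± 0.42, KRT1, a keratin of stratified epithelium, by 1.84 ± 0.65, AP1M2, an epithelial sorting adaptor, by 0.77 ± 0.12, and the desmosomal cadherin DSG2 by 0.62 ± 0.12. DSG2 fell below the fold threshold without follicular replicate 5 or 9 or luteal replicate 4 (0.56 to 0.58). CDH1, the cadherin of adherens junctions, was at 556 and 494 CPM in the medians, with a difference of 0.09 ± 0.13 (adjusted p = 0.63). EPPK1, a cytoskeletal linker, fell by 0.9996 ± 0.38 (adjusted p = 0.0455) and lost its call in 14 of 21 fits that left out 1 library, with adjusted p-values up to 0.076.

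Lysosomes break down proteins, lipids and glycans with acid hydrolases, and many of these enzymes were higher in the follicular phase. Of 32 identifiers in the lysosomal list 16 were higher and none was lower (21.04% and 2.56% of genes with a symbol). The list median was 0.66, but without luteal replicate 7 CTSF (-0.62) and MCOLN2 (-0.70) passed as lower. Of the 32, 12 had all follicular libraries above all luteal ones (4.15% of genes with a symbol did). The list was chosen with earlier results of these data known, so this share is not independent evidence. CTSB, cathepsin B, had 418, 527 and 688 CPM in follicular and 193, 239.6 and 284 CPM in luteal libraries and rose by 1.17 ± 0.10 (adjusted p = 1.22e-07). IDS, which degrades dermatan and heparan sulfate, had 74.2, 87.3 and 114 CPM against 20.1, 40.0 and 56.2 CPM and rose by 1.16 ± 0.14 (adjusted p = 4.64e-06). The glycosidases FUCA1 (1.03 ± 0.09), GLB1 (0.67 ± 0.15) and NEU1 (0.63 ± 0.11) rose with them. So did the sulfatases SGSH (0.75 ± 0.15) and ARSA (0.81 ± 0.11), the sphingomyelinase SMPD1 (0.83 ± 0.09), the proteases CTSZ (0.87 ± 0.09), LGMN (0.86 ± 0.10) and CTSK (0.80 ± 0.18), and progranulin, GRN (0.92 ± 0.09). In luteal replicate 7, CTSB at 284 CPM was the highest luteal value and below every follicular library. The membrane protein LAMP1 (0.27 ± 0.08), the sphingolipid activator PSAP (0.38 ± 0.09) and the protease TPP1 (0.41 ± 0.10) were under the fold threshold, and the cholesterol transporter NPC1 (-0.29 ± 0.19), the chloride transporter CLCN7 (-0.22 ± 0.15) and the cation channel MCOLN3 (-1.41 ± 0.66) did not pass.

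**Figure D3:**
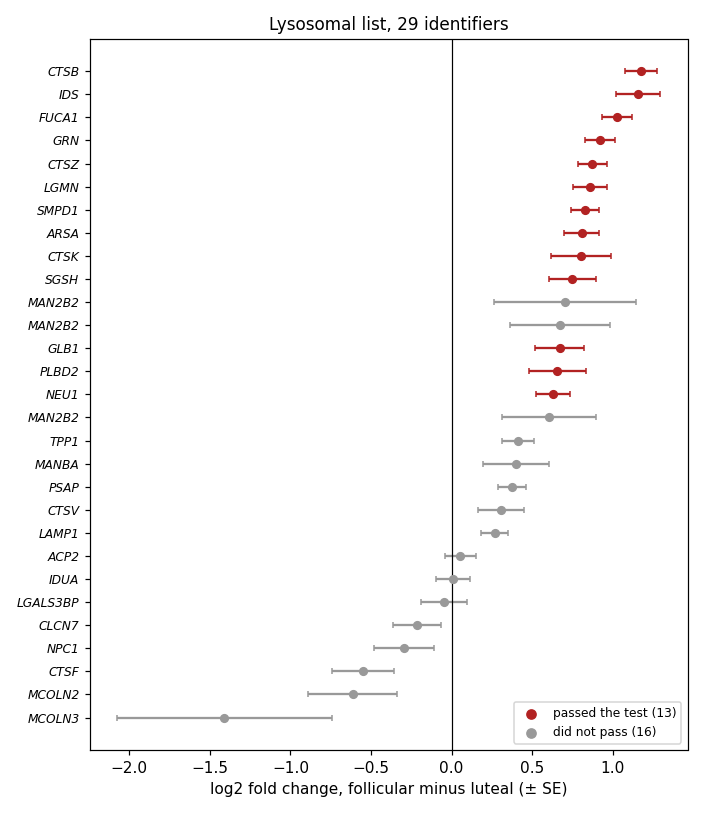
Log2 fold change of follicular minus luteal with its SE for 29 of the 32 identifiers of the lysosomal list in Suffolk, sorted by value, with 3 that passed left out of the plot. Filled red points passed the test (13, from 0.63 for NEU1 to 1.17 for CTSB) and 16 grey points did not. No member plotted passed the test as lower.

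Of 34 identifiers of the matrix list 16 were higher and 2 lower (21.04% and 2.56% of genes with a symbol), with a median of 0.62. MMP14, a membrane-bound collagenase, had 842, 909 and 2029.5 CPM against 355, 459 and 701 CPM, without overlap, and rose by 1.15 ± 0.17 (adjusted p = 4.33e-05). SPON2, a secreted matrix protein, had 173, 278 and 752 CPM against 51.5, 91.4 and 188 CPM and rose by 1.48 ± 0.26. COMP, a cartilage-type matrix glycoprotein, rose by 1.38 ± 0.26, fibrillin FBN2 by 1.67 ± 0.40, the prolyl hydroxylase P4HA3 by 1.46 ± 0.40, the hyaluronidase HYAL1 by 1.05 ± 0.22, the collagen cross-linking LOXL2 by 0.79 ± 0.18 and the gelatinase MMP2 by 0.62 ± 0.21. THBS2, a thrombospondin, counts 3 times among the 16 because 3 identifiers carry its symbol (1.63 to 1.77). PLAT, tissue plasminogen activator, fell by 0.99 ± 0.24 from a luteal median of 237 to a follicular median of 125 CPM, and AGRN, a basement membrane proteoglycan, fell by 0.61 ± 0.14 and went under the fold threshold in 5 fits without 1 library (follicular replicate 3, 4 or 8, luteal replicate 3 or 5). The summed CPM of the 12 fibroblast and stroma markers had medians of 3676 in follicular (3080 to 8357) and 2253 in luteal libraries (1894 to 3751), with 5 markers higher and none lower, and their part in the matrix values was not tested.

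Lipid mediator genes included 4 increases among 10 tested and no decrease (21.04% and 2.56% of genes with a symbol), with a median of 0.43. LPAR2, a receptor for lysophosphatidic acid, had 21.1, 52.9 and 76.6 CPM against 10.5, 17.4 and 27.0 CPM and rose by 1.52 ± 0.22 (adjusted p = 3.24e-05), and its relative LPAR3 rose by 0.69 ± 0.22. The phospholipases PLA2G10 and PLA2G4F, which release fatty acids from membranes, rose by 2.43 ± 0.45 and 2.38 ± 0.59. PTGS1, the constitutive cyclooxygenase, ran from 17.9 to 78.1 CPM in follicular and from 26.6 to 106 CPM in luteal libraries. Its difference of -0.63 ± 0.26 did not pass (adjusted p = 0.0659), but passed with DESeq2 (-0.64, adjusted p = 0.0428) and without follicular replicate 3 or luteal replicate 2, 7 or 8 (-0.69 to -0.78).

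Developmental signalling genes gave 7 increases among 26 tested and no decrease (21.04% and 2.56% of genes with a symbol), with a median of 0.45. HHAT, the enzyme that palmitoylates hedgehog ligands, had 10.9, 14.5 and 17.6 CPM against 3.75, 7.12 and 11.9 CPM and rose by 1.03 ± 0.16 (adjusted p = 5.71e-05). The ligands WNT10B (0.75 ± 0.13) and WNT5A (0.87 ± 0.21), the receptor FZD2 (0.60 ± 0.13), the WNT inhibitor KREMEN1 (0.81 ± 0.16) and the BMP decoy receptor BAMBI (1.52 ± 0.43) rose beside BMP2. The NOTCH receptors NOTCH1 (-0.31 ± 0.13), NOTCH2 (0.13 ± 0.18) and NOTCH4 (-0.57 ± 0.19) were not called.

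In the interferon list 1 of 25 identifiers was higher and none lower (21.04% and 2.56% of genes with a symbol), with a median of -0.18. That member was IRF8 (0.71 ± 0.24, adjusted p = 0.0284), a transcription factor of myeloid cells, which lost its call without follicular replicate 2 or 3 or luteal replicate 1 (adjusted p from 0.0506 to 0.0595). ISG15, a ubiquitin-like interferon-induced protein, had medians of 6.88 and 17.7 CPM and a difference of -0.997 ± 0.39 (adjusted p = 0.052). In the acute phase and antimicrobial list 6 of 18 were higher and none lower (again against 21.04% and 2.56%), with a median of 0.40. IFI30, a lysosomal thiol reductase, had 46.1, 84.0 and 137 CPM against 25.0, 36.7 and 52.9 CPM and rose by 1.28 ± 0.17 (adjusted p = 1.29e-05). LCN2, an iron-sequestering antibacterial protein, rose by 1.55 ± 0.30, the haem oxygenase HMOX1 by 0.77 ± 0.13, and the chemokines CXCL14 by 2.23 ± 0.51 and CCL26 by 2.07 ± 0.65. One of the 2 identifiers of SAA1 rose (2.30 ± 0.85), the other was at 0.33 ± 0.64, or 1.35 without luteal replicate 7 (adjusted p = 0.0465), and neither identifier of complement C3 passed (0.22 ± 0.34 and 0.22 ± 0.36).

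Further genes outside these lists were called between the phases, some without overlap of the groups and some with it. TMED3, a cargo receptor of the early secretory pathway, had 216, 392 and 525 CPM against 76.1, 99.4 and 136 CPM and rose by 1.79 ± 0.16 (adjusted p = 1.49e-07). FUCA2, a secreted fucosidase, rose by 0.997 ± 0.09, and SETD7, a lysine methyltransferase, by 0.97 ± 0.10, both without overlap. The histone genes HIST1H2BC (3.06 ± 0.26) and HIST1H1T (3.42 ± 0.35) also had no overlap. By the study's methods only uniquely mapped read pairs were kept, so pairs that matched several histone genes would not be counted. What this meant for these values was not tested. PADI6, of the family of PADI2, had 0.810, 8.69 and 20.9 CPM against 0.0872, 0.396 and 3.37 CPM, a rise of 4.04 ± 0.62, or 4.91 without luteal replicate 7. FSTL5, a secreted follistatin-like protein, rose by 4.78 ± 0.73, and TGM7, a transglutaminase, by 4.69 ± 0.77, or 3.82 without follicular replicate 6. FSTL5 had 0.234, 4.96 and 14.8 CPM against 0, 0.0618 and 0.828 CPM, and TGM7 0.337, 2.97 and 36.0 CPM against 0.0481, 0.227 and 0.525 CPM. The groups of both overlapped, and both luteal medians were close to or below the 0.131 to 0.225 CPM of 3 counts. PRSS16, a thymus-type serine protease, ran from 0.519 to 356 CPM in follicular libraries. Its difference was 4.49 ± 1.08 (adjusted p = 0.00294), 3.13 without follicular replicate 3 and 5.26 without luteal replicate 10. PRSS16 lost its call with the replicate number as a block (2.20, adjusted p = 0.0770). The smallest p-values among higher genes without a symbol belonged to ENSOARG00000006985 (1.16 ± 0.08) and ENSOARG00000001076 (1.13 ± 0.08), both with adjusted p = 2.77e-08.

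**Figure D4:**
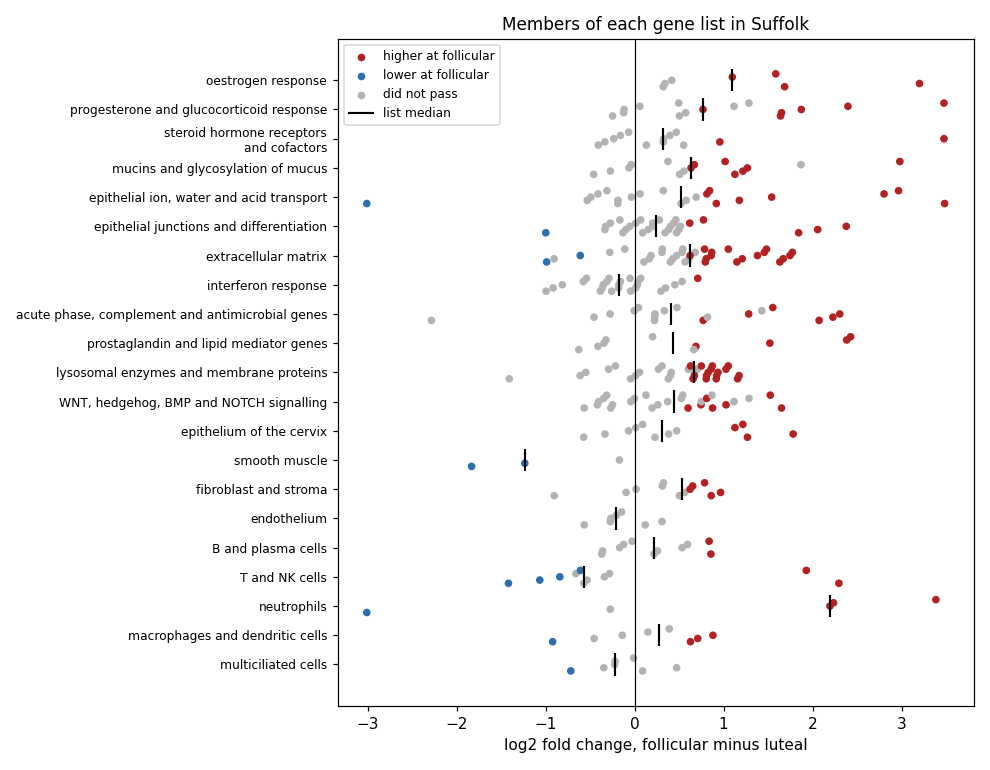
Log2 fold change of follicular minus luteal for the tested members of each pathway and cell type list in Suffolk. Each point is 1 identifier, red passed the test as higher, blue as lower and grey did not pass, and a vertical bar marks the list median (0.66 for the lysosomal list, 1.10 for oestrogen response, -0.18 for interferon response and -1.24 for smooth muscle).

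Of the genes lower in the follicular phase, ANKRD10, an ankyrin repeat protein, had 49.9, 54.8 and 58.8 CPM in follicular and 68.9, 86.9 and 108 CPM in luteal libraries, without overlap, and fell by 0.66 ± 0.08 (adjusted p = 2.48e-06). The transcription factor TFAP4 had 5.37, 8.45 and 11.1 CPM against 10.6, 16.4 and 20.9 CPM and fell by 0.93 ± 0.14 (adjusted p = 5.89e-05). KYAT1, a kynurenine aminotransferase, had 43.1, 57.9 and 70.8 CPM in follicular libraries. All luteal libraries lay above that range (76.9 to 234 CPM) except replicate 7 at 29.6 CPM, and KYAT1 fell by 1.13 ± 0.22 (adjusted p = 0.000621). The unnamed genes ENSOARG00000012855 and ENSOARG00000013277 fell by 1.55 ± 0.12 and 1.38 ± 0.12 (adjusted p = 4.47e-08 and 1.22e-07), without overlap.

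ADAM7, a member of the ADAM family best known from the epididymis, was high in 4 luteal libraries. It was at 23.2, 102, 80.6 and 76.8 CPM in luteal replicates 1, 6, 9 and 10, at or below 2.601 CPM in the other 6, and at or below 1.42 CPM in every follicular library. It fell by 5.75 ± 1.01 (adjusted p = 0.000207). The same 4 libraries held the highest luteal values of AQP9 (48.8, 136, 98.6 and 65.3 CPM, against 2.90 to 21.5 CPM in the other 6), and AQP9 fell by 3.01 ± 0.65 (adjusted p = 0.00134). PRODH, proline dehydrogenase, was at 103, 107 and 103 CPM in luteal replicates 1, 6 and 9 and fell by 1.27 ± 0.25. In replicate 10 PRODH was at 61.6 CPM, below replicate 3 at 72.6 CPM. ESR2 was at 26.3, 23.7 and 12.2 CPM in luteal replicates 6, 9 and 10, but at 4.81 CPM in replicate 1, below replicate 7 at 5.08 CPM. PTGS1 was at 64.3, 106, 82.3 and 94.8 CPM in replicates 1, 6, 9 and 10, its 4 highest luteal values. FMO2, a flavin monooxygenase, fell by 3.09 ± 0.62, with its highest luteal values in replicates 6 and 9 (31.8 and 36.5 CPM). In replicates 1 and 10 FMO2 was at 17.1 and 2.62 CPM, against 17.2 CPM in replicate 8. On the second principal component replicates 6 and 9 were at -43.8 and -40.3, replicates 1 and 10 at 9.14 and 2.10, and replicates 4 and 5 at 60.3 and 55.8, so this component did not part the 4 libraries from the rest.

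**Figure D5:**
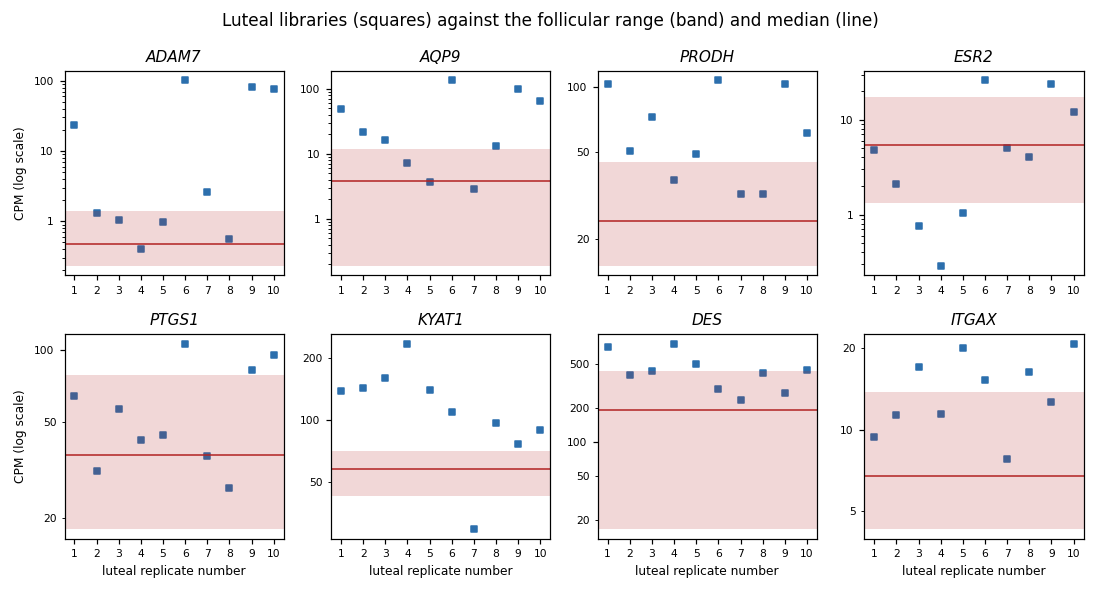
CPM on a log axis of 8 genes in each luteal library (squares, by replicate number), with the follicular range as a band and the follicular median as a line. ADAM7 and AQP9 were highest in replicates 1, 6, 9 and 10, and KYAT1 lay above the follicular band in every luteal library but replicate 7.

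Markers of other cell types were measured in the same libraries. Their counts are also read against the 21.04% higher and 2.56% lower of genes with a symbol. Of the smooth muscle markers tested, DES, the muscle intermediate filament desmin, had 16.6, 192 and 433 CPM in follicular and 236, 423 and 756 CPM in luteal libraries, and fell by 1.24 ± 0.43 (adjusted p = 0.0313). ASB2, a muscle ubiquitin ligase subunit, fell by 1.83 ± 0.36 (adjusted p = 0.000621). ACTG2, smooth muscle gamma actin, ran from 10.2 to 267 CPM against 87.0 to 259 CPM with a difference of -0.17 ± 0.38 (adjusted p = 0.751). POPDC2, PCP4 and ACTC1 were too low to test. The 6 markers together summed to 28.1 to 707 CPM (median 269) in follicular and 326 to 987 CPM (median 578) in luteal libraries. DES lost its call without follicular replicate 3 or 9 or luteal replicate 1 or 4 (adjusted p from 0.0518 to 0.0594) and in the fit of all breeds and states together (-1.23, adjusted p = 0.1315). The follicular libraries with the lowest DES were replicates 11 (16.6 CPM), 2 (32.2 CPM) and 6 (36.3 CPM). The part of muscle content in the other values was not tested.

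Of 12 epithelial markers 4 were higher and none lower, and their sum ran from 4273 to 6982 CPM (median 5420) in follicular and from 2359 to 4658 CPM (median 3011) in luteal libraries. Those that rose were MUC1, MUC16, MUC5B and the folate receptor FOLR1 (1.78 ± 0.47), while the transcription factor PAX8 (-0.07 ± 0.16), CLDN3 (0.01 ± 0.23) and CDH1 did not pass. The epithelial sum includes MUC16 (follicular and luteal medians of 1766 and 620 CPM) and MUC1 (1214 and 532 CPM). The part of epithelial content in this sum was not tested. No endothelial marker of 7 was called, and their sums overlapped (874 to 1332 against 826 to 1667 CPM). Of 7 multiciliated cell markers MYCBPAP fell (-0.72 ± 0.17).

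Leukocyte markers were mixed. PADI4, a citrullinating enzyme known from neutrophils, had 53.1, 138 and 282 CPM in follicular and 4.01, 7.91 and 36.1 CPM in luteal libraries, without overlap, and rose by 3.39 ± 0.43 (adjusted p = 8.51e-06). The neutrophil chemokine receptor CXCR2 rose by 2.19 ± 0.45 but stayed at or below 3.83 CPM, CD177 rose by 2.24 ± 0.79, and HVCN1, a proton channel, did not pass (-0.27 ± 0.30). AQP9, also in the neutrophil list, fell, so 3 of its 5 tested members rose and 1 fell. Of 11 T and NK cell markers 4 fell and 2 rose. TNFRSF25, a death-domain receptor of T cells, fell by 1.07 ± 0.22, the protease CTSW by 0.84 ± 0.24 and the kinase TXK by 0.61 ± 0.21. TNFRSF18, of the same receptor family as TNFRSF25, rose by 2.30 ± 0.34 and the interleukin receptor chain IL12RB2 by 1.93 ± 0.48. GNLY, the cytolytic granulysin, fell by 1.42 ± 0.55 (adjusted p = 0.047) and lost its call in 13 of 21 fits without 1 library, with luteal replicate 7 its highest value (87.9 CPM) and an adjusted p of 0.116 without it. Of 8 macrophage and dendritic cell markers ITGAX, an integrin, fell by 0.92 ± 0.19, and ACP5, IRF8 and CD80 rose. Of 11 B and plasma cell identifiers TXNDC5, a disulfide isomerase of the endoplasmic reticulum, and PRDM1, a transcription factor, rose by 0.84 ± 0.13 and 0.86 ± 0.19, while the 2 immunoglobulin IGHG3 identifiers did not pass (0.53 ± 0.65 and 0.59 ± 0.65). The sum of this list ran from 1632 to 58179 CPM in follicular libraries, the highest being replicate 2, and from 1678 to 16834 CPM in luteal libraries.

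The natural cycle gave a second follicular group, compared with the same 10 luteal libraries, so that the values stand side by side and are not independent. At the natural follicular phase 1006 of 14628 genes were higher (6.88%) and 890 lower (6.08%) than in the synchronised luteal phase. GREB1 differed by 2.76 (3.20 at the synchronised follicular phase), HSD11B1 by 2.82 (3.48), RBP2 by 4.35 (5.94), ST6GAL2 by 1.96 (2.98) and CTSB by 0.77 (1.17), all called in both. MUC1 (0.73, adjusted p = 0.118) and CFTR (0.91, adjusted p = 0.15) were not called at the natural follicular phase. DES was 1.28 higher there without passing (adjusted p = 0.246), against -1.24 at the synchronised phase. Natural replicates 6, 7 and 8 held 2540, 4238 and 1341 CPM of DES, with no other natural library above 314 CPM. The natural median of DES was 196 CPM, against medians of 192 CPM in synchronised follicular and 423 CPM in luteal libraries. The synchronised and natural follicular libraries were not tested against each other.

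The phase difference of Suffolk was then tested against that of each other breed in 1 fit of 76 libraries. Against Fur and NWS the breeds also differed in country, and the part of country was not tested. In that fit Suffolk had 1251 higher and 1326 lower genes (8.55% and 9.06%), Belclare 1852 and 1573 (12.7% and 10.8%), Fur 1631 and 1778 (11.1% and 12.2%), and NWS 1517 and 1795 (10.4% and 12.3%). The difference between breeds itself passed for 8 genes against Belclare (0.0547%), 27 against Fur (0.185%) and 1 against NWS (0.00684%), while 1745, 2100 and 2126 genes had an unadjusted p under 0.05. These counts moved from 1 to 49, from 1 to 75 and from 1 to 18 as single Suffolk libraries were left out. The lysosomal list had a median phase difference of 0.66 in Suffolk, 0.69 in Belclare, 0.37 in Fur and 0.22 in NWS, with 16, 17, 6 and 5 members higher and 1, 3, 4 and 3 lower. Among genes with a symbol 21.27%, 24.36%, 14.1% and 12.9% were higher and 2.49%, 12.52%, 14.4% and 14.86% lower in these breeds. Over genes with a symbol the median phase difference was 0.23, 0.11, -0.0014 and -0.057 in the same order. Symbols came from genes that differed between Suffolk and another breed at the follicular phase. Unlike phase differences of list members between breeds can therefore be in part built in. No lysosomal member differed from Suffolk in another breed by the test of the difference, the smallest adjusted p being 0.0658 for CTSK against NWS. Of all 295 list members GALNT15, which starts mucin-type glycans, was the single one that passed, against Fur. It was at 2.05 and 1.85 CPM in the follicular and luteal medians of Suffolk, and its phase difference was -0.04 ± 0.38 in Suffolk and -2.44 ± 0.44 in Fur (adjusted p of the difference = 0.0483).

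For 4 further members the breeds had unlike values, but the difference did not pass. Their symbols also came from the genes that differed between breeds at the follicular phase. S100G was 1.10 in Suffolk, where it passed, and -0.08, -0.79 and -0.78 in Belclare, Fur and NWS, where it did not (adjusted p of the difference = 0.34, 0.11 and 0.10). DES was -1.23 in Suffolk in that fit and 0.88, 0.38 and 0.96 in the others, passing in none of the 4 breeds (adjusted p = 0.31, 0.41 and 0.25), and ACTG2 was -0.18 against 1.61, 1.33 and 1.91, passing in Belclare and NWS (adjusted p = 0.36, 0.41 and 0.24). OXTR was 0.32 in Suffolk and 4.41, 3.91 and 3.64 in the other breeds, passing in those 3 (adjusted p = 0.17, 0.20 and 0.23), where the Suffolk value again included luteal replicate 7.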

How the data were processed

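Values were raw read counts per gene, deposited by the authors as 1 file for each sample, with reads aligned with STAR 2.6.1b and counted with Subread 1.6.3 per the submitters' processing notes. Libraries were stranded poly(A) RNA. Groups followed the labels. Genes with at least 1 CPM in at least 8 of the 21 libraries were tested with edgeR 4.0.16 in R 4.3.3 (TMM, quasi-likelihood F test, Benjamini-Hochberg adjustment), with SE as the absolute log2 fold change over the square root of F. CPM used the library sizes of 29 Suffolk libraries. The 18 natural follicular and luteal libraries had a separate fit, and the breeds a fit of 76 libraries with an interaction term. DESeq2 1.42.0 was an alternative. Principal components used log2 CPM with a prior count of 2. The scripts were tested on simulated data. In a library 3 counts correspond to 0.101 to 0.234 CPM.

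The named genes were the called genes with a symbol of smallest p (10 in each direction) and largest change (5), the called list members of smallest p, and 13 genes of interest in every case. Other list members illustrate the counts, and a few are counted but not reported here by name. The members and lists were chosen with earlier results of these data known. The replicate numbers did not pair the samples (2 of 10 correlations of deviations above 0.1).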

Additional observations from a re-analysis of the deposited data

Results flagged for a closer look

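In the luteal phase 13 of the 75 genes examined had 1 library far from the other 9 by Dixon's ratio. By this rule chance flags about 1 in 20 groups of normally distributed values. The ratio was taken on CPM without a log scale and all 13 flags were at the high end, so that rate may not hold here. Luteal replicate 7 was the flagged library for 6 of these genes, with 229 CPM of OXTR, 361 CPM of CFTR, 51.3 CPM of GJB2, 44.4 CPM of WNT10B, 10.8 CPM of BMP2 and 3.37 CPM of PADI6, each the highest luteal value. Replicate 8 stood high for FUCA1 (115 CPM) and HMOX1 (29.6 CPM), and replicate 5 for MUC5AC (122 CPM) and RBP2 (1.27 CPM). LCN2 was at 37.4 CPM in replicate 4, PLA2G10 at 14.3 CPM in replicate 2 and PRSS16 at 11 CPM in replicate 10. The follicular group of 11 was not examined this way.

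The phase difference itself differed between Suffolk and Belclare for 8 genes, between Suffolk and Fur for 27 and between Suffolk and NWS for 1, by the interaction term of the edgeR fit. With a symbol these were FAM210B, where Suffolk minus Fur was 0.95 ± 0.21 (adjusted p = 0.0378), and GALNT15, where it was 2.40 ± 0.58 (adjusted p = 0.0483). For Fur and NWS these differences cannot be assigned to breed rather than country.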

How the results depend on the processing

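Without a fold threshold 5238 genes passed in Suffolk (2589 higher, 2649 lower), and when the test was made against 1.5-fold 640 passed (389 and 251). The other settings kept the counts within 1.5 times, and leaving out 1 library gave 2307 to 2927 genes, 1159 to 1467 higher and 1101 to 1460 lower, the most without luteal replicate 7. For the natural follicular phase the counts were 3066 (1725 and 1341) without a fold threshold, 111 (74 and 37) against 1.5-fold and 1078 (521 and 557) with the replicate number as a block, and 1371 to 2350 (755 to 1257 and 616 to 1121) without 1 library. In Suffolk the block gave 2440 genes, and no pairing was established.

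The interaction counts were the least stable. Against Belclare they were 0 with only both breeds, 0 with the block and 49 with DESeq2, and 1 to 49 without 1 library. Against Fur they were 1 with the block and 112 with DESeq2, and 1 to 75 without 1 library. Against NWS they were 0 above 1.5-fold, 22 with only both breeds and 96 with DESeq2, and 1 to 18 without 1 library. The causes were not tested.

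ESR2 turned to 0.41 with the block (adjusted p = 0.676), and MUC5AC to -0.31 without follicular replicate 2 and luteal replicate 7, a setting chosen after seeing the data. Without 1 library ESR2 ran from -0.27 to 0.35, MUC5AC from -0.21 to 2.81 and OXTR from -0.25 to 4.03. The difference of median total counts was -721650.5, against 1526445.0 for means. Over the 75 named genes and all settings other than leaving out 1 library, the joint removal of 2 libraries included, 617 values kept direction and call, 32 lost the call, 6 gained it and 2 turned. Differences near 3 counts are limited by depth.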

Other observations

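The genes in this and the next paragraph were chosen after their values were seen. TTR, transthyretin, the partner of RBP4 in plasma, had 0.839, 1.51 and 3.88 CPM as the lowest, median and highest follicular value and 0, 0.120 and 0.281 CPM in luteal libraries, without overlap, and rose by 3.97 ± 0.44 (adjusted p = 2.11e-06).

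TAC3, the precursor of neurokinin B, has 2 identifiers. The first had 121, 276 and 729 CPM against 1.10, 9.26 and 77.6 CPM and rose by 3.86 ± 0.65, and the second rose by 3.78 ± 0.59, both without overlap between phases. The TAC3 phase difference was 7.37 and 7.25 in Belclare, 7.47 and 7.31 in Fur, and 4.35 and 4.38 in NWS, and the difference from Suffolk did not pass against Belclare (adjusted p = 0.0807 and 0.0776) or Fur (adjusted p = 0.0619 and 0.0605).

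The Suffolk library with conflicting labels, left out of every comparison, had 15387419 counts, with 191 CPM of CTSB, 127 CPM of GREB1, 3.30 CPM of HSD11B1, 2.03 CPM of PADI2, 0.348 CPM of RBP2 and 631 CPM of DES.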
